A study of Salix linearistipularis with 24 samples.

Results

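Roots of female cuttings of the willow *Salix linearistipularis* after 12 h of salinity stress were compared with roots of untreated female cuttings. The comparison was chosen by sex and treatment in the sample labels and held 6 of the 24 libraries of the series, with 3 libraries of roots in 100 mM NaCl for 12 h and 3 libraries of control roots in water. All cuttings were grown in hydroponic culture, and the female 6 and 24 h NaCl libraries (3 each) entered the filter on low values and the estimate of the spread and were set beside the 12 h libraries. The sample labels describe 1 female individual propagated to cuttings, whereas the methods of the study describe a female tree of each of several populations. Neither the hour of control sampling nor the plant behind a library is stated, so differences between treatments and differences between plants or sampling hours cannot be told apart. The values were FPKM, fragment counts normalised to transcript length and library size, of unigenes assembled without a reference genome. Of the 253209 rows of the table, 119091 were single unigenes and 134118 were contigs that belonged to 20753 clusters, whose names begin with CL. After the contigs of each cluster were summed there were 139844 genes, and the 71861 genes with at least 1 FPKM in at least 3 of the 12 female libraries were tested.

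Salt in the medium lowers the water potential around a root, and Na+ that enters the cells is toxic. Plants respond by moving Na+ out of the cytosol through Na+/H+ antiporters (*NHX* genes), which are driven by proton pumps, by making osmotically active sugars and other solutes, and by protecting proteins and membranes with chaperones and enzymes that remove reactive oxygen species (ROS). Transcription factors of the WRKY and MYB families take part in switching such genes on. *S. linearistipularis* is a dioecious shrub willow of saline-alkali soils, and the question of the comparison was which transcripts of female roots differed after 12 h of NaCl.

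The 12 h libraries resembled each other far more than they resembled the control libraries. Across tested genes, which are not independent replicates, the correlation of log2 values was 0.968 to 0.969 among 12 h libraries and 0.968 to 0.969 among control libraries, against 0.766 to 0.772 between both groups. The 12 h libraries were nearer to the 24 h libraries (0.907 to 0.910) than to the 6 h libraries (0.613 to 0.620), and the 6 h libraries stood apart from every other female group. The sum of FPKM was 680036 to 682466 in the 12 h libraries and 705973 to 716878 in the control libraries. Genes with at least 1 FPKM numbered 43045 to 43171 at 12 h and 47463 to 48033 in control roots. Read numbers were not analysed here, and steps of low FPKM values put the depth at 0.979 to 1.04 of that of the first library in the 12 h group and at 0.946 to 0.953 of it in the control group, an estimate that cannot show a large difference. P-values measure only the spread between these libraries, which may be technical. No root cell type marker could be checked, since the table gives no gene names, and a lower level in whole roots cannot tell fewer cells of a type from less RNA per cell.

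With contigs summed, more genes were lower than higher at 12 h. Genes were called differentially expressed (DEGs) when limma on log2(FPKM + 0.5) gave an adjusted p no larger than 0.05 and a log2 ratio of 1 or more in either direction, a scale that understates the changes of genes with low FPKM. At 12 h, 9430 genes (13.1%) were higher and 12103 (16.8%) were lower, together 30.0% of the genes tested. Another 17181 genes (23.9%) had an adjusted p of at most 0.05 with a smaller ratio. The balance depended on processing. With median-of-ratios scaling, 9848 genes were higher and 10907 lower. Contigs and unigenes tested as rows of their own went the other way, with 18319 higher and 17584 lower. The median log2 ratio of all tested genes was -0.12, and 800 DEGs had a ratio of at least 3 and 1969 a ratio of -3 or less. The 3 libraries at 12 h lay above all 3 control libraries for 16576 genes (23.1%) and below them for 25314 (35.2%). Genes listed at 0 in 1 group were mostly single unigenes with low values: 309 genes were listed at 0 in every control library and had at least 1 FPKM in every 12 h library, and 2000 genes were listed at 0 in every 12 h library and had at least 1 FPKM in every control library. Single unigenes made up 277 of the 309 and 1924 of the 2000.

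**Figure D1:**
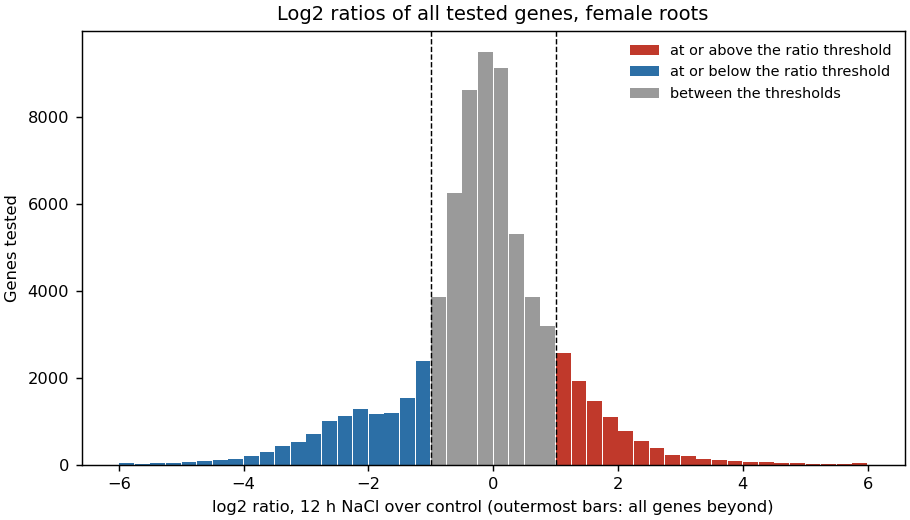
Number of tested genes (vertical axis) by log2 ratio of 12 h NaCl over control (horizontal axis), female roots, with dashed lines at the ratio threshold of 1. The peak lies just below 0, and the tail of lower genes is longer than that of higher genes: 1969 DEGs had a ratio of -3 or less and 800 a ratio of at least 3.

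The extremes of the table carry no name. Among genes outside the lists described below and with a mean of at least 10 FPKM in the higher group, the highest ratio was that of CL3005, with 236, 247, and 246 FPKM in the 12 h libraries against 0.340, 0.690, and 0.660 FPKM in the control libraries (log2 ratio 7.86, standard error 0.10). Unigene6408 was next, with 224 to 226 FPKM at 12 h and 0.460 to 0.710 FPKM in control roots. At the other end, Unigene48396 had 0, 0.460, and 1.01 FPKM at 12 h against 258, 340.0, and 317 FPKM in control roots (log2 ratio -8.40, standard error 0.35), and CL3784 had 0.460 to 0.670 FPKM against 254 to 276 FPKM. All 4 genes were chosen for the size of their ratios, so that their groups had to lie far apart. Unigene48396 also passed the filter on low values only through the control libraries.

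Named genes came from the lists of salt-responsive genes and of ROS pathway genes that accompany the study, which name each gene by its nearest protein match. Together the lists held 157 genes, and 133 passed the filter on low values. At 12 h 32 of these were higher, 13 lower, and 88 not called, so that 33.8% were DEGs against 30.0% of all tested genes, and their median log2 ratio was 0.00 against -0.12. The share of DEGs was near that background. Of the 45 DEGs 32 were higher, whereas 43.8% of all DEGs were higher. The study chose the lists on these samples, so the counts are not independent evidence of a response to NaCl. The salt list had 30 genes higher and 12 lower of 99 tested, and the ROS list 15 higher and 1 lower of 53. These lists overlap, and the 13 higher small heat shock protein genes count in both. The rest of the ROS list had 1 gene higher and 1 lower of 18 tested cytosolic ascorbate peroxidases. Among its 3 tested ferritin genes 1 was higher and none lower, and none of 13 peroxisomal ascorbate peroxidases was called. The 12 h libraries lay wholly above the control libraries for 49 of the 133 genes and wholly below them for 49, against 23.1% and 35.2% of all tested genes. The nearest match lay outside the willow family for 18 tested genes, of which 4 were higher and 4 lower. The summed FPKM of all 22 such listed genes was 83.6 to 91.7 at 12 h and 72.7 to 80.9 in control roots, and their part in the results was not tested. Whether they are willow genes or came from RNA of other organisms in the samples was not tested either. Among the other 115 tested genes, 28 were higher and 9 lower.

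**Figure D2:**
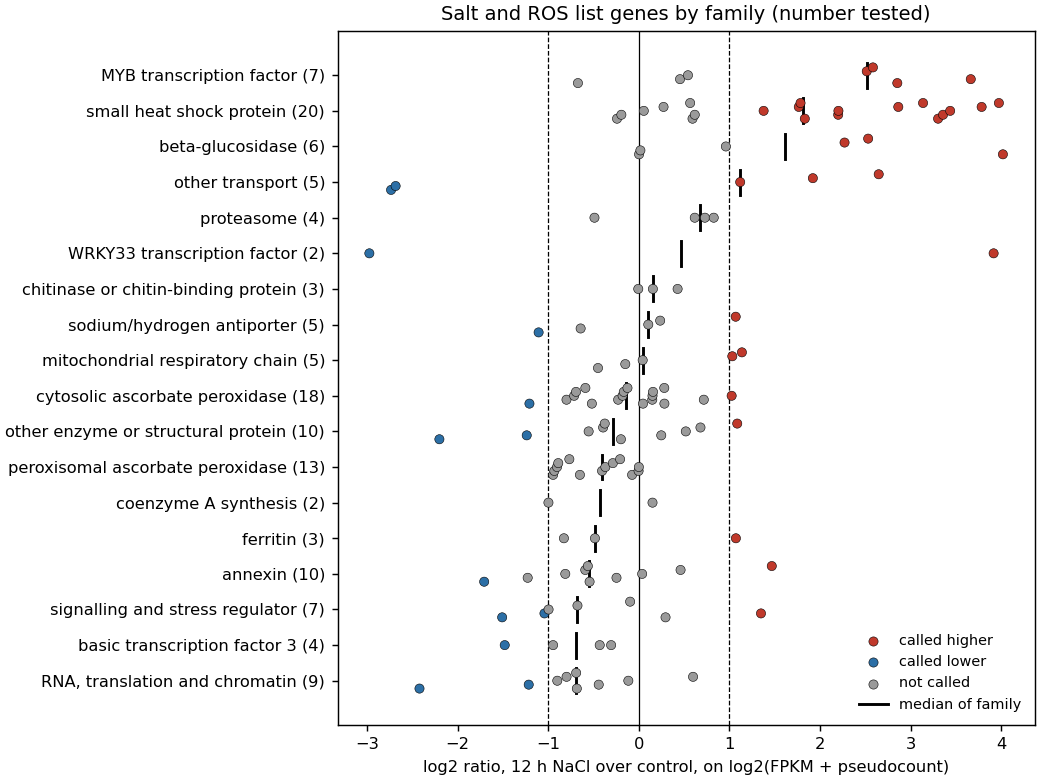
Log2 ratio of 12 h NaCl over control (horizontal axis) for each of the 133 tested list genes, by family, with the number tested in parentheses. Points are genes, coloured by the call, black bars are family medians, and dashed lines mark the threshold of 1. MYB, small heat shock protein, and beta-glucosidase genes lie mostly to the right, and no peroxisomal ascorbate peroxidase gene passes either threshold. Points of genes listed at 0 in a whole group depend on the pseudocount.

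The 2 genes matched to WRKY33, a transcription factor of pathogen and salt responses in *Arabidopsis*, were called in opposite directions. CL3639 had 1000.0, 982, and 975 FPKM at 12 h against 66.6, 62.0, and 66.2 FPKM in control roots, a 15.2-fold higher mean (log2 ratio 3.91, standard error 0.02, adjusted p = 2.14e-16 by limma). It rose in 20 of its 29 tested contigs and fell in none, although the most abundant contig was contig 32 at 12 h and contig 6 in control roots. Unigene26361 had 0, 0.550, and 0.340 FPKM at 12 h and 4.58, 6.96, and 5.14 FPKM in control roots (log2 ratio -2.97, standard error 0.26, adjusted p = 1.27e-06). Almost all FPKM of the pair came from CL3639 in both groups. The VQ motif gene CL12613 (VQ22) rose as well, with 218, 219.8, and 218 FPKM at 12 h against 83.0, 87.9, and 85.9 FPKM in control roots (log2 ratio 1.35, standard error 0.02). VQ proteins are known as cofactors that bind WRKY factors.

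Of 7 MYB transcription factor genes, 4 rose and none fell, against 13.1% higher and 16.8% lower among all tested genes. CL2555, matched to MYB13, had 155, 157, and 166 FPKM at 12 h against 13.6, 11.7, and 11.1 FPKM in control roots, and it rose 13.1-fold (log2 ratio 3.66, standard error 0.06, adjusted p = 2.62e-13 by limma). MYB-related factors of the KUA1 type are known from *Arabidopsis*, where they repress peroxidase genes and affect cell expansion. Of the 3 KUA1 genes, Unigene12477 had 29.8 to 30.4 FPKM at 12 h and 3.67 to 3.88 FPKM in control roots (log2 ratio 2.85), and Unigene43889 had 57.1 to 59.5 FPKM and 8.96 to 10.5 FPKM (2.51). The third, Unigene37971, had 8.79 to 11.4 FPKM at 12 h and 6.28 to 7.85 FPKM in control roots and stayed under the ratio threshold (0.45, adjusted p = 0.00181). CL5344 (MYBS3, known in rice from sugar and cold signalling) had 11.3 to 12.9 FPKM at 12 h and 1.29 to 1.94 FPKM in control roots (2.58). For these 5 genes the 12 h libraries lay above all control libraries, as they did for 23.1% of all tested genes. Unigene75289 (MYBS1) had 1.65 to 2.25 FPKM at 12 h and 3.15 to 3.87 FPKM in control roots (-0.67, not called). CL6070 (MYB1R1) had 77.5 to 81.3 FPKM at 12 h and 52.4 to 56.3 FPKM in control roots (0.54, not called), a sum that held contigs of unlike behaviour, described below with the contigs.

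Basic transcription factor 3 is the beta subunit of the nascent polypeptide-associated complex at the ribosome. Of 4 tested genes, CL18251 fell, with 13.8, 12.7, and 12.2 FPKM at 12 h against 38.1, 37.1, and 35.2 FPKM in control roots (log2 ratio -1.48, standard error 0.08, adjusted p = 1.35e-08 by limma). The other 3 had the 12 h libraries below the control libraries, as did 35.2% of all tested genes, with ratios above -1: CL3930 (-0.31, 80.9 to 86.2 FPKM against 101 to 105 FPKM), Unigene24178 (-0.43), and Unigene24762 (-0.95). The last was called lower with a pseudocount of 0.1 (-1.20), without the third 12 h library (-1.01), or without the first control library (-1.11). Among 9 tested genes of RNA, translation, and chromatin, 2 fell and none rose, which is near the 16.8% lower among all tested genes. CL2909, matched to the plant-specific histone deacetylase HDT3, had 20.3 to 22.4 FPKM at 12 h and 50.1 to 52.4 FPKM in control roots (-1.22, standard error 0.05). Unigene50175, a polyadenylate-binding protein 2 gene with a tobacco match, had 0.900 to 1.53 FPKM at 12 h and 8.22 to 9.46 FPKM in control roots (-2.42, standard error 0.19).

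Small heat shock proteins (sHSPs), ATP-independent chaperones that hold unfolding proteins, had more members called higher than any other family in the lists. All 20 genes passed the filter, and 13 rose, 7 were not called, and none fell at 12 h, against 13.1% higher among all tested genes. The class I gene CL697 had 105, 103, and 105 FPKM at 12 h against 6.71, 7.86, and 6.83 FPKM in control roots (14.6-fold, log2 ratio 3.78, standard error 0.06, adjusted p = 4.88e-13 by limma). The class III gene CL12066 had 25.1, 20.6, and 23.3 FPKM at 12 h against 2.09, 1.35, and 1.62 FPKM in control roots (13.6-fold, log2 ratio 3.44, standard error 0.10). Unigene20703, a class I gene, had 11.3 to 13.1 FPKM at 12 h and 0.570 to 0.870 FPKM in control roots (3.36, standard error 0.24). Unigene17995 had 8.82, 6.03, and 7.45 FPKM at 12 h and was listed at 0 in every control library, so no fold is given. The 17 class I genes held 11 of the 13 higher genes, and their summed FPKM was 164 to 166 at 12 h and 26.1 to 27.1 in control roots. The summed FPKM of the 2 class II genes overlapped, with 152 to 161 at 12 h and 147 to 181 in control roots. Most of that sum came from CL17724, whose own ratio was -0.24 (133 to 143 FPKM at 12 h, 142 to 175 FPKM in control roots, not called). It was the most abundant of all 20 genes in both groups. The other class II gene, CL4285, rose, with 18.2 to 19.7 FPKM at 12 h and 4.56 to 5.62 FPKM in control roots (1.78). CL17724 and CL4285 were chosen for the text after their values were seen.

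Genes of sugar handling were among the most abundant named DEGs. Beta-glucosidases release sugars and signal molecules from glycosides, and the cluster CL19012, matched to a non-cyanogenic beta-glucosidase, had 3819, 3829, and 3885 FPKM at 12 h against 823, 783, and 785 FPKM in control roots. It rose 4.82-fold (log2 ratio 2.27, standard error 0.02, adjusted p = 2.65e-15 by limma), and 53 of its 62 tested contigs were higher and none lower. Of the 6 tested genes of 10 listed, 3 rose and none fell, against 13.1% higher among all tested genes. Unigene27717 (beta-glucosidase 12) had 10.6, 9.88, and 9.88 FPKM at 12 h against 0.0800, 0.270, and 0.130 FPKM in control roots (4.02, standard error 0.24), and Unigene21524 (beta-glucosidase 11) had 3.43 to 4.76 FPKM and 0.260 to 0.380 FPKM (2.53, standard error 0.13). The sugar transporter gene CL1787 is matched to STP13, a proton-coupled hexose importer of the plasma membrane. It had 779, 771, and 780.5 FPKM at 12 h against 125, 123, and 123 FPKM in control roots (6.28-fold, log2 ratio 2.65, standard error 0.02, adjusted p = 3.48e-16 by limma). Its 24 tested contigs included 14 that were higher and none that was lower. No library of 1 group came near the range of the other for CL1787 or CL19012.

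Of the 6 listed genes of other transport proteins, CL1787 included, 3 rose, 2 fell, and 1 did not pass the filter on low values. Among all tested genes 13.1% were higher and 16.8% lower. Both transport genes that fell passed the filter only through the control libraries, so that they had to differ. CL8420, matched to a mitochondrial phosphate carrier that brings phosphate in for ATP synthesis, had 180.1, 179.8, and 175 FPKM at 12 h against 43.0, 49.7, and 47.9 FPKM in control roots (log2 ratio 1.92, standard error 0.04). Unigene7100, an aquaporin of the plasma membrane type with its nearest match in a wheat, had 3.78 to 4.10 FPKM at 12 h and 1.29 to 1.98 FPKM in control roots (1.12, standard error 0.11). With a pseudocount of 1 its ratio was 0.96, under the threshold. The nearest match of Unigene57331 was a green alga's catalytic subunit A of the vacuolar proton ATPase, the pump that energises vacuolar Na+/H+ exchange. Unigene57331 was listed at 0 in every 12 h library and had 2.69, 2.78, and 2.67 FPKM in control roots, and no fold is given. Unigene69581, matched to a soluble inorganic pyrophosphatase of cork oak, had 0.270, 0.270, and 0.510 FPKM at 12 h and 6.49, 3.65, and 5.58 FPKM in control roots (-2.73, standard error 0.24). The last member, CL4278 (ABC transporter G family), did not pass the filter, with 0.170 to 0.220 FPKM at 12 h and 0.510 to 0.830 FPKM in control roots. The nearest match lay outside the willow family for Unigene7100, Unigene57331, Unigene69581, and CL4278, and whether these are willow transcripts was not tested.

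The 5 *NHX* genes, for Na+/H+ antiporters, did not move together. CL3276, matched to sodium/hydrogen exchanger 1 of rubber tree, a vacuolar type, had 17.8, 18.2, and 17.4 FPKM at 12 h against 8.09, 7.70, and 8.91 FPKM in control roots and rose 2.16-fold (log2 ratio 1.07, standard error 0.07, adjusted p = 8.08e-08 by limma). CL7345, matched to exchanger 7 (in *Arabidopsis* SOS1, which exports Na+ across the plasma membrane), had 7.77, 7.16, and 7.76 FPKM at 12 h against 16.8, 17.7, and 16.2 FPKM in control roots and fell (log2 ratio -1.11, standard error 0.06, adjusted p = 1.33e-08). After median-of-ratios scaling the ratio of CL7345 was -0.99, and it was no longer a DEG. CL9910, the most abundant *NHX* gene in both groups and matched to exchanger 1 of poplar, had 41.5, 43.0, and 41.3 FPKM at 12 h and 64.8, 67.0, and 65.5 FPKM in control roots (-0.64, adjusted p = 9.32e-09, under the ratio threshold). CL2217, matched to the endosomal exchanger 6, had 26.5 to 28.5 FPKM at 12 h and 24.9 to 25.9 FPKM in control roots (0.10, 95% interval 0.01 to 0.20, adjusted p = 0.0697). Unigene43275, matched to exchanger 2, had 0.0600, 0.150, and 0.0600 FPKM at 12 h and was listed at 0 in control roots. The exchanger numbers given here are those of the nearest protein match. The study numbered the genes by a phylogeny with poplar *NHX* genes, and some of its numbers differ from these. The order of levels was the same in both groups except that CL3276 lay above CL7345 at 12 h and below it in control roots. The summed FPKM of all 5 was 93.1 to 95.7 at 12 h and 115 to 118 in control roots.

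The only sequences at hand for these assembled genes are the qPCR primers listed with the study, printed here for the 3 *NHX* clusters whose level or contigs differed, so that they can be found in a transcriptome of the species. Letters are 5′ to 3′ and all in lower case, since no part is singled out and their place in a contig or genome was not analysed here.
CL3276 forward: tggtttgaggatggtatcggag
CL3276 reverse: caatggcaagggcagtagtaga
CL7345 forward: atggggagtgcgatagaaaa
CL7345 reverse: caatgccgatgacgagaaga
CL9910 forward: acctggcataatgtgactgaga
CL9910 reverse: ttccaaccataacaagacccag
These primers are 20 to 22 bases long with a GC content of 45% to 50%.

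Ascorbate peroxidases reduce hydrogen peroxide with ascorbate. Of 18 tested cytosolic ascorbate peroxidase genes, 1 rose and 1 fell, and the other 16 were not called, against 30.0% DEGs among all tested genes. Several of the 16 had means under 1 FPKM in both groups, where the pseudocount shrinks the ratios, so the low share is not a clear result about the family. CL11411 fell, with 2.20, 2.08, and 2.10 FPKM at 12 h against 5.42, 5.84, and 5.44 FPKM in control roots (log2 ratio -1.21, standard error 0.12, adjusted p = 3.01e-06 by limma), whereas its most abundant contig alone stayed under the threshold (-0.56). Unigene20277 rose, with 3.56 to 3.87 FPKM at 12 h and 1.42 to 1.72 FPKM in control roots (1.02, standard error 0.19), and its ratio was 0.87 with a pseudocount of 1. Without the first 12 h library it was 0.99 and without the third control library 0.98, also under the threshold. None of 13 tested peroxisomal ascorbate peroxidase genes was called, with ratios from -0.95 to 0.00. The ratio of 0.00 is that of Unigene17812, which was listed at 0 in all 6 compared libraries. Unigene17812 passed the filter only through the 6 h libraries, so that it could not be called. For 7 of these 13 genes the 12 h libraries lay below all control libraries, against 35.2% of all tested genes. The summed FPKM was 455 to 459 at 12 h and 541 to 559 in control roots for the cytosolic genes, and 52.0 to 54.3 and 88.3 to 94.0 for the peroxisomal ones.

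Ferritin stores iron and so keeps it from forming radicals. The ferritin gene CL4009 had 149, 155, and 153 FPKM at 12 h against 72.2, 73.0, and 71.2 FPKM in control roots (log2 ratio 1.07, standard error 0.02, adjusted p = 4.60e-12 by limma), and its most abundant contig alone had a ratio of 0.79. The other tested ferritin genes, CL5890 (21.7 to 25.1 FPKM at 12 h, 31.5 to 33.5 FPKM in control roots, -0.48) and Unigene5413 (0.910 to 4.51 FPKM and 4.54 to 6.27 FPKM, -0.83, adjusted p = 0.0987), were not called. The third 12 h library was the low one for Unigene5413, which was called lower without the first (-1.14) or the second 12 h library (-1.11). Unigene26100 did not pass the filter. The glutathione S-transferase gene CL4774, of a family that conjugates reactive compounds to glutathione, had 314, 328, and 320.1 FPKM at 12 h against 149.8, 156, and 146 FPKM in control roots (1.09, standard error 0.02).

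Regulators of stress signalling other than VQ22 lay lower or were not called. CL13859, matched to XERICO, a RING ubiquitin ligase known in *Arabidopsis* for raising abscisic acid levels, had 4.24, 4.61, and 5.34 FPKM at 12 h against 13.2, 14.4, and 15.4 FPKM in control roots (log2 ratio -1.51, standard error 0.09, adjusted p = 4.08e-08 by limma). CL12578, matched to the BAG chaperone regulator 4, had 7.85 to 8.63 FPKM at 12 h and 16.5 to 19.6 FPKM in control roots (-1.04, standard error 0.10), and its ratio was -0.93 with scaled libraries and -0.97 without the second control library. The other BAG gene, Unigene64280, had 1.07 to 1.28 FPKM at 12 h and 1.90 to 3.68 FPKM in control roots (-0.996, not called). It was called lower with a pseudocount of 0.1 (-1.20), without the second 12 h library (-1.05), or without the third control library (-1.22). CL1315, matched to the kinase SAPK1 of rice, a member of the SnRK2 family of osmotic stress kinases, had 6.67, 6.83, and 4.39 FPKM at 12 h and 6.73, 5.74, and 6.46 FPKM in control roots (-0.10, 95% interval -0.41 to 0.21), and the groups overlapped. CL4816 (a calmodulin-binding receptor-like kinase, 0.29) was not called.

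Of 5 respiratory chain genes, all with a nearest match in cork oak, 2 rose and none fell, against 13.1% higher among all tested genes. CL9911, an ATP synthase delta' subunit gene, had 21.6, 24.6, and 19.0 FPKM at 12 h against 10.3, 9.48, and 8.97 FPKM in control roots (log2 ratio 1.14, standard error 0.11, adjusted p = 1.94e-06 by limma). Unigene68161, with the same match, had 0.920 to 1.73 FPKM at 12 h and 0.10 to 0.560 FPKM in control roots (1.03, standard error 0.24), and was under the threshold without the first 12 h library (0.85), without the first control library (0.78), or with a pseudocount of 1 (0.72), and lost its call in a fit on all 24 libraries. Unigene68160 (-0.15), Unigene68158 (-0.45), and the cytochrome c oxidase subunit gene CL4869 (0.04, 17.5 to 17.8 FPKM at 12 h and 16.2 to 17.7 FPKM in control roots) were not called. None of the 4 tested proteasome genes, also all matched to cork oak, was called: CL2133 (0.83), CL5653 (0.73), CL2954 (0.62), and Unigene51500 (-0.49). CL2133 passed the threshold without the third control library (1.06). CL19312, matched to CBSX3, a mitochondrial regulator of thioredoxin, had 80.0, 76.4, and 83.5 FPKM at 12 h against 183, 192, and 192 FPKM in control roots (-1.24, standard error 0.03, adjusted p = 2.89e-11). Unigene52977, a mitochondrial aconitase gene of the citric acid cycle with a match in spinach, had 0.20 to 0.540 FPKM at 12 h and 2.66 to 4.42 FPKM in control roots (-2.20, standard error 0.28), and also passed the filter only through the control libraries.

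Annexins, calcium-dependent membrane-binding proteins, had 1 of 10 genes higher and 1 lower, against 13.1% higher and 16.8% lower among all tested genes. CL17084 (annexin D4) had 0.810, 1.22, and 0.750 FPKM at 12 h against 3.14, 5.13, and 4.28 FPKM in control roots (log2 ratio -1.71, standard error 0.18, adjusted p = 7.49e-06 by limma). Unigene96484 (annexin D5) had 1.20, 2.95, and 1.52 FPKM at 12 h and 0.60, 0.520, and 0 FPKM in control roots (1.47, standard error 0.50, adjusted p = 0.0274), and the call was lost without the second 12 h library (1.17, adjusted p = 0.104) or the third control library (1.11, adjusted p = 0.118), with adjusted p from 0.0120 to 0.118 over all alternatives. Unigene96484 passed the filter on low values only through the 12 h libraries, where it was high. The 3 chitinase and chitin-binding genes, known for defence against fungi, were not called. CL13878 (pro-hevein) differed by less than the spread of the libraries, with 441, 436, and 451 FPKM at 12 h and 446, 441, and 447 FPKM in control roots (-0.01, 95% interval -0.05 to 0.03). CL8158 had a ratio of 0.43 and Unigene9927 of 0.15. Of the coenzyme A synthesis genes, CL14846 (3.51 to 4.90 FPKM at 12 h, 8.83 to 9.40 FPKM in control roots, -0.998) and Unigene6569 (0.15) were not called, and Unigene15132 was listed at 0 in all 6 libraries. CL14846 was called lower with a pseudocount of 0.1 (-1.06), without the first (-1.08) or the third 12 h library (-1.05), or without the second control library (-1.02).

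**Figure D3:**
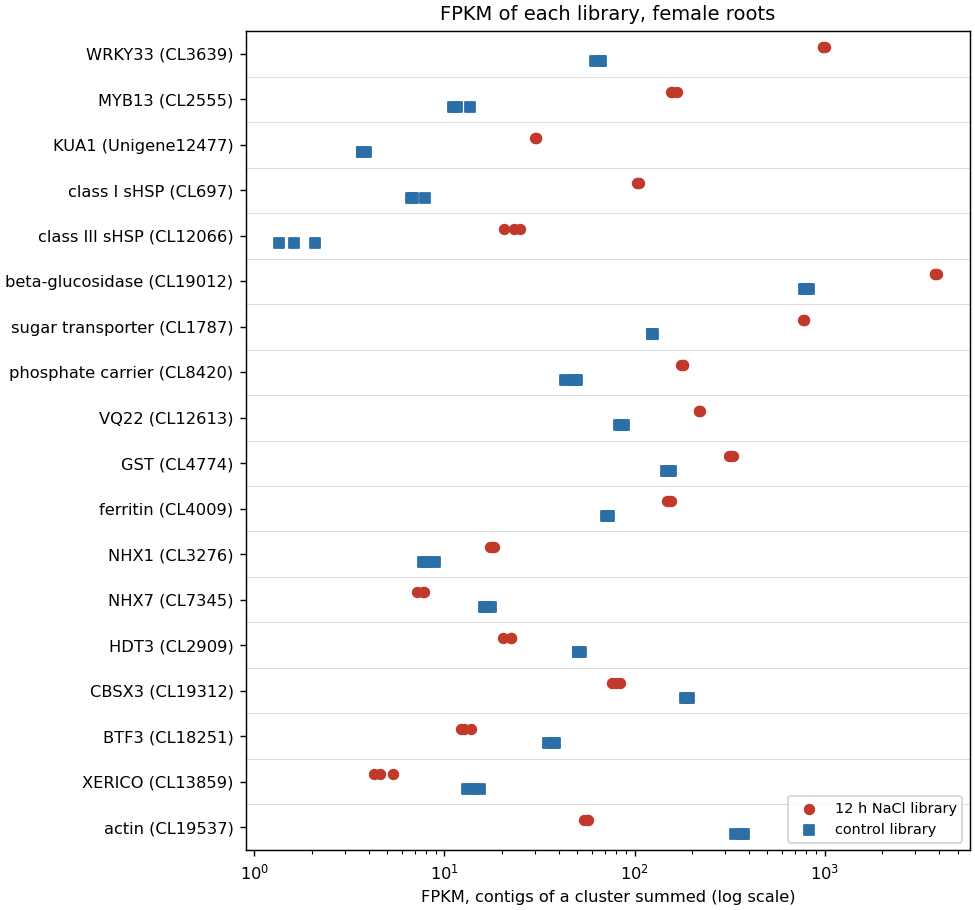
FPKM of each library (horizontal axis, log scale, contigs summed) for 18 named genes, with 12 h NaCl libraries as red circles above the control libraries as blue squares. All 18 are DEGs, so that their groups had to lie apart. In each, the 3 libraries of a group lie closer together than the groups do. *NHX* labels follow the nearest protein match. WRKY33 stands at 975 to 1000.0 FPKM at 12 h and 62.0 to 66.6 FPKM in control roots, and actin at 54.5 to 57.1 and 336 to 377 FPKM.

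The actin cluster CL19537, which the study used as the reference gene of its qPCR, was lower at 12 h. It had 57.1, 56.5, and 54.5 FPKM at 12 h against 336, 369.9, and 377 FPKM in control roots, a level 6.44-fold higher in control roots (log2 ratio -2.67, standard error 0.04, adjusted p = 2.02e-13 by limma). Of its 34 tested contigs 23 fell, 2 rose, and 9 were not called, and contig 17 was the most abundant in both groups (9.57 FPKM at 12 h, 94.4 FPKM in control roots). Which contigs a qPCR assay of this gene reads was not tested.

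**Figure D4:**
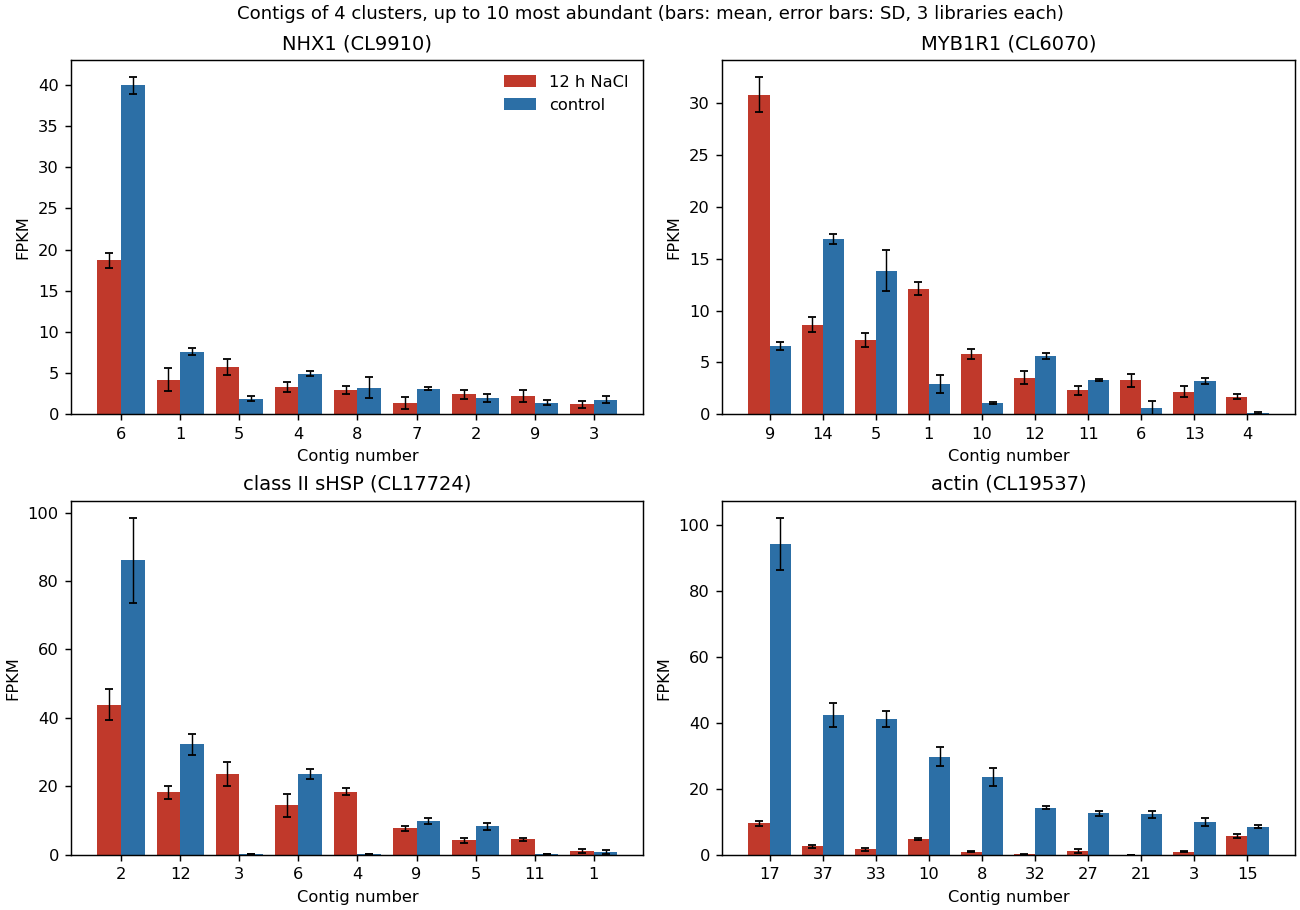
Mean FPKM (vertical axis) of up to 10 of the most abundant contigs, by contig number, in 4 clusters, with 12 h NaCl to the left of control and error bars of 1 SD (n = 3 libraries each). In CL9910, CL6070, and CL17724 some contigs are higher at 12 h and others higher in control roots, whereas the mean of each of the 10 actin contigs shown is lower at 12 h. Contig 15 of the actin cluster was not called. The *NHX* label follows the nearest protein match.

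Summed genes can hide contigs that differ in opposite directions. Tested as rows of their own, 18319 contigs and unigenes (13.5%) were higher and 17584 (13.0%) lower of 135726. Of 14478 clusters with at least 2 tested contigs, 606 (4.19%) had contigs called in both directions, and 532 of these were not called as a gene. Among the 57 clusters of the lists and actin, 54 had at least 2 tested contigs, 3 of these had contigs called in both directions (CL19537, CL4869, and CL9910), and the most abundant contig differed between groups in 19. In *NHX* cluster CL9910 contig 6, which held 44.5% of the sum at 12 h and 60.8% in control roots, fell to 18.7 FPKM at 12 h, against 40.0 FPKM in control roots (log2 ratio -1.08, standard error 0.06). Contig 5 of the same cluster rose to 5.73 FPKM at 12 h, against 1.88 FPKM in control roots (1.38, standard error 0.19). In *NHX* cluster CL3276 contig 6 led in both groups, with 52.5% of the sum at 12 h and 48.3% in control roots.

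Other clusters differed in part of their contigs only. In MYB1R1 cluster CL6070, 6 of 11 tested contigs were higher and none lower, and contig 9 had 30.8 FPKM at 12 h against 6.61 FPKM in control roots (log2 ratio 2.14, standard error 0.08), whereas contig 14, the leading contig of control roots, had 8.63 FPKM against 16.9 FPKM (-0.93, not called). In the class II sHSP cluster CL17724, contig 3 had 23.6 FPKM at 12 h against 0.173 FPKM in control roots (5.15, standard error 0.09) and contig 4 had 18.4 FPKM against 0.20 FPKM (4.76, standard error 0.06). Contig 2 of that cluster had 43.8 FPKM at 12 h against 86.0 FPKM in control roots (-0.96, not called). The contigs of a cluster may be alleles, copies, or splice forms of a gene, which the table does not tell apart, and reads shared by near-identical contigs can be split between them. All contigs named here were chosen after their values were seen.

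The 12 h libraries were also set directly against the other NaCl groups. Against 6 h, 12687 genes (17.7%) were higher at 12 h and 23468 (32.7%) lower. Against 24 h, 9715 (13.5%) were higher at 12 h and 2365 (3.29%) lower, a balance that depended on scaling. After median-of-ratios scaling 6563 were higher and 4775 lower, and the median log2 difference of all genes was 0.03 in place of 0.29. Of the 133 tested list genes, 18 were higher at 12 h than at 6 h and 37 lower, and 12 were higher at 12 h than at 24 h and 30 lower. All 3 NaCl groups share the control libraries, so their ratios to control are given only side by side.

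Gene groups stood in different places in the series of control, 6 h, 12 h, and 24 h. Of the 20 sHSP genes, 18 were lower at 12 h than at 24 h (19 after scaling), and none was higher. Among all tested genes 3.29% were lower at 12 h than at 24 h (6.64% after scaling). CL697 averaged 7.13 FPKM in control roots and 96.3 FPKM at 6 h, 104 FPKM at 12 h, and 879.8 FPKM at 24 h, and its 12 h level was below that at 24 h by 3.07 on the log2 scale (adjusted p = 2.58e-11 by limma) and not called against 6 h (adjusted p = 0.117). CL12066 averaged 1.69, 43.2, 23.0, and 97.3 FPKM in the same order of groups. Beta-glucosidase cluster CL19012 averaged 797, 1018, 3844, and 9739 FPKM, with 12 h above 6 h by 1.92 and below 24 h by 1.34. Of the 6 tested beta-glucosidase genes, 3 were higher at 12 h than at 6 h and 4 lower than at 24 h (5 after scaling). The shares among all tested genes were 17.7% and 3.29% (6.64% after scaling).

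Transcription factor, antiporter, and actin genes had other courses. WRKY33 gene CL3639 averaged 64.9, 1387, 986, and 1728 FPKM in control roots and at 6, 12, and 24 h, and its 12 h level was not called against 6 h (-0.49) or 24 h (-0.81), although it was called lower than at 24 h after scaling (-1.28). MYB13 gene CL2555 averaged 12.2, 409, 159, and 356 FPKM. CL2555 was lower at 12 h than at 6 h by 1.36 (adjusted p = 1.26e-09 by limma) and than at 24 h by 1.16. *NHX* gene CL3276 averaged 8.23, 22.7, 17.8, and 13.0 FPKM, and its 12 h level was not called against 6 h (-0.35) or 24 h (0.44). CL7345 averaged 16.9, 16.8, 7.56, and 7.64 FPKM, lower at 12 h than at 6 h (-1.10, adjusted p = 8.94e-09) and at about the level of 24 h (-0.01). The actin cluster CL19537 averaged 361, 141, 56.0, and 16.0 FPKM, so that each NaCl group differed from the next by more than the spread of its libraries.

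Several genes were far higher at 6 h than at 12 h. Of the 18 tested genes with a match outside the willow family, none was higher at 12 h than at 6 h, and 12 were lower, against 32.7% of all tested genes. The cytochrome c oxidase gene CL4869 averaged 17.1 FPKM in control roots and 94.2 FPKM at 6 h, 17.6 FPKM at 12 h, and 5.02 FPKM at 24 h. Aquaporin gene Unigene7100 averaged 1.58, 65.0, 3.97, and 8.55 FPKM. All 4 tested proteasome genes were lower at 12 h than at 6 h and higher at 12 h than at 24 h, also after scaling. Without scaling, the shares among all tested genes were 32.7% and 13.5%. Of the 115 tested genes with matches in the willow family, 25 were lower at 12 h than at 6 h and 18 higher. Among those that were lower, SAPK1 gene CL1315 averaged 6.31, 32.2, 5.96, and 7.55 FPKM. Chitinase gene Unigene9927 averaged 0.297, 28.8, 0.390, and 0.303 FPKM. Unigene9927 passed the filter on low values only through the 6 h libraries, so that it had to be high there.

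**Figure D5:**
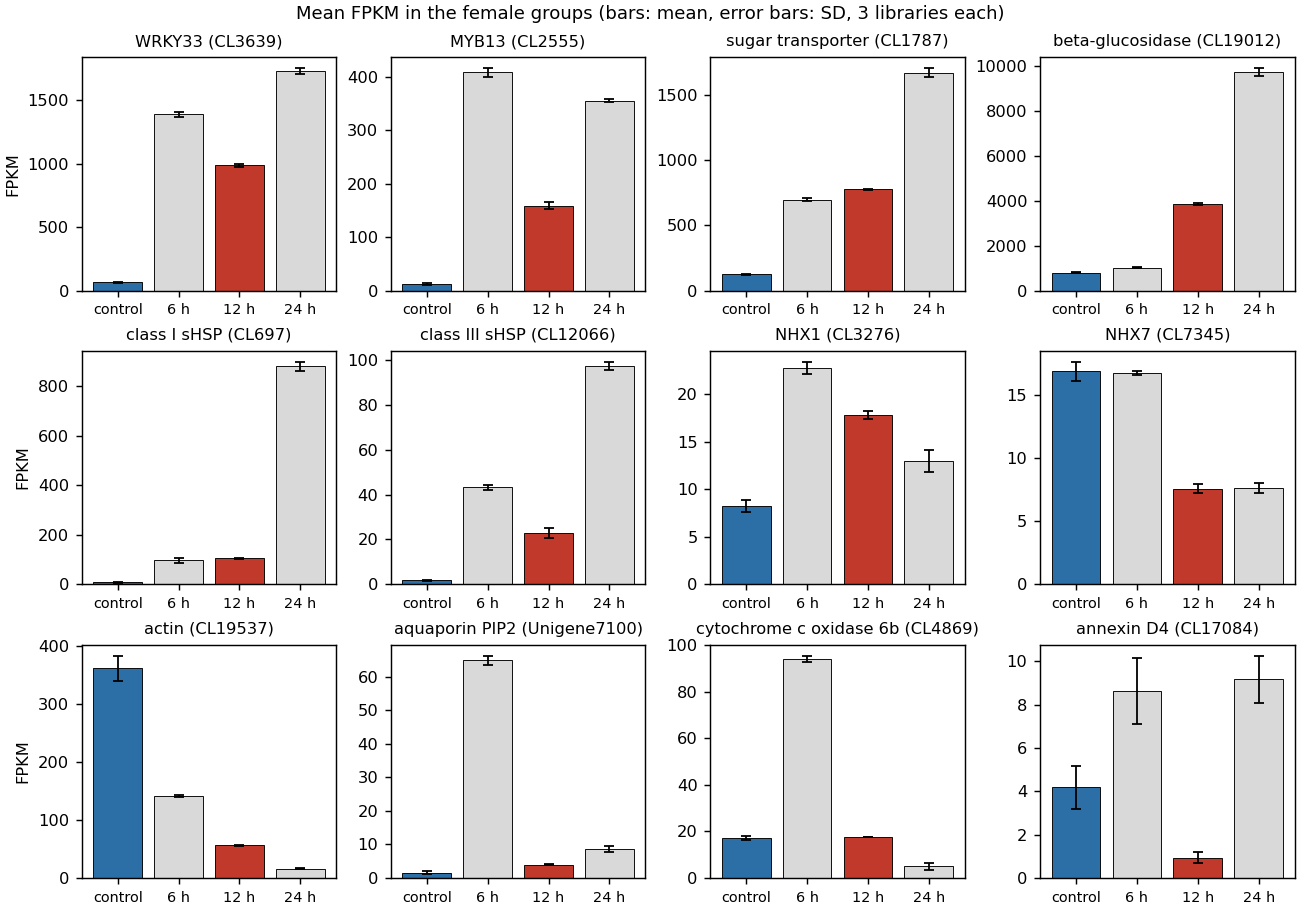
Mean FPKM (vertical axis, contigs summed) of 12 named genes in female control roots and roots at 6, 12, and 24 h in NaCl, with the 12 h bars in red and control in blue. Error bars are 1 SD (n = 3 libraries each), and *NHX* labels follow the nearest protein match. The class I sHSP gene CL697 reached 104 FPKM at 12 h and 879.8 FPKM at 24 h, whereas the mean of MYB13 was 159 FPKM at 12 h, below 409 FPKM at 6 h and 356 FPKM at 24 h.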

How the data were processed

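The series holds 24 root RNA libraries in 8 groups of 3. Reads were assembled de novo by the authors (Trinity), similar contigs were clustered, and the authors deposited FPKM values for each contig or unigene, called RPKM in their methods. How reads were mapped: not given in the sources used here.

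Contigs of a cluster were summed. Genes with at least 1 FPKM in at least 3 of the 12 female libraries were kept and converted to log2(FPKM + 0.5). A single linear model over the 4 female groups was fitted by limma 3.58.1 under R 4.3.3, using eBayes with an intensity trend. Male libraries were left out of this model. Benjamini-Hochberg adjustment covered all tested genes. The thresholds were those of the study's methods (FDR 0.05, absolute log2 ratio 1). Intervals are 95% intervals of the log2 ratio from the same fit. The script was tested on simulated data. Python 3.11.15 with pandas 2.3.3, numpy 2.4.6, scipy 1.17.1, and matplotlib 3.10.9, and the R package data.table in version 1.17.8, served for reading, summing, and plotting.

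The comparison, the lists, and the families were chosen with earlier results of these data known. Named were all members of families of at most 7 genes and of mixed groups of that size, the actin gene, up to 4 higher and 3 lower genes of larger groups, and 4 genes with no annotation; 1 member of the signalling group is not reported here. Alternatives were pseudocounts of 0.1 and 1, no filter, a filter of 5 FPKM, median-of-ratios scaling, FDR 0.01, a block for the replicate number, a fit to the 6 compared libraries and a fit to all 24, each library left out, and the most abundant contig in place of the sum. qPCR and GO enrichment were not analysed here.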

Additional observations from a re-analysis of the deposited data

Results flagged for a closer look

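Annexin D4 gene CL17084 was lower at 12 h than in control roots (0.927 ± 0.256 against 4.18 ± 0.999 FPKM, SD, n = 3 each) and higher at 24 h than in control roots (9.17 ± 1.09 FPKM at 24 h). It was picked out because the calls at these times had opposite directions. The direct difference of 12 h minus 24 h was -2.77 on the log2 scale (adjusted p = 2.79e-07 by limma), and each 12 h library lay below each 24 h library. At 6 h the gene averaged 8.64 ± 1.53 FPKM (SD, n = 3). All ratios to control use the same control libraries.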

How the results depend on the processing

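With a filter of 5 FPKM, which tests fewer genes, 4219 genes were higher and 4429 lower at 12 h than in control roots, 8740 and 6408 as contig rows, 4788 and 8189 against 6 h, and 3945 and 1123 against 24 h, and 210 clusters had contigs called in both directions. Against 24 h, 14854 genes were higher with a pseudocount of 0.1 and 6040 with a pseudocount of 1, and 4775 were lower after median-of-ratios scaling. Leaving out a library gave 9276 to 9383 higher and 12013 to 12200 lower genes against control, and 30 to 33 higher and 14 to 16 lower list genes, against 32 and 13 with all libraries. Deviations of same-numbered libraries from their group means were hardly correlated (-0.012, 0.0048, and -0.0064). This cannot show whether the libraries were paired, since such deviations may be mostly noise of read counting. With the replicate number as a block 9415 genes were higher and 12089 lower. Of 68 named genes tested, 46 had the same call and direction under each of the 16 alternatives that tested them, and only 57 of the 68 were tested with the filter of 5 FPKM. Signs changed only for genes that were not called: CL1315 (0.011 with scaling, -0.20 to 0.093 with a library left out), CL13878 (0.11 with scaling, -0.020 to 0.0044 with a library left out, 0.20 by its most abundant contig), CL2133 (-0.20), CL2954 (-0.39), CL4869 (-0.35), and CL5653 (-0.17) by their most abundant contigs, and, with a library left out, Unigene6569 (-0.030 to 0.36) and Unigene68160 (-0.40 to 0.14, of which 0.068 without the second control library). Genes near the thresholds and genes of few FPKM, whose depth is unknown, are the least certain. The causes were not tested.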
